A study of Homo sapiens with 9 samples.

Results

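The nuclear genome encodes most of the subunits of the mitochondrial respiratory chain, and the RNAs of these genes were followed here in the established line MIA PaCa-2, which derives from a human pancreatic cancer. Members were taken by biotype and name alone: protein-coding genes whose symbols begin with NDUFA, NDUFB, NDUFC, NDUFS, NDUFV, UQCR or ATP5, the genes SDHA to SDHD and CYC1, and the COX4 to COX8 subunit genes. This gave 100 of the 58735 genes in the table. By complex they are 37 subunits of complex I, 8 complex I assembly factors (the NDUFAF genes, which the name rule also takes), 4 subunits of complex II, 10 of complex III, 19 of complex IV including NDUFA4 and NDUFA4L2, 18 of complex V, and 4 genes grouped by name only. The last 4 are the coupling factor gene ATP5S, ATP5MGL and the readthrough genes ATP5MF-PTCD1 and NDUFC2-KCTD14.

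The chain carries electrons from NADH through complex I, or from succinate through complex II, to ubiquinone, then through complex III and cytochrome c to complex IV, which reduces oxygen. Complexes I, III and IV pump protons across the inner mitochondrial membrane, and complex V, the ATP synthase, uses the proton gradient to make ATP. Complexes I, III, IV and V also contain subunits read from mitochondrial DNA, so each is built from the products of both genomes, whereas all subunits of complex II are nuclear-encoded.

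Cells had received 1 μM SCH772984, an inhibitor of the kinases ERK1/2, 1 μM compound 1, an inhibitor of the kinases TBK1 and IKKε, or 0.1% DMSO as vehicle, each for 24 h, and 3 libraries were sequenced per group. All groups are the same cell line, and no source used here says that the libraries came from separate cultures. The libraries held 9464432 to 13887859 counts, with the SCH772984 libraries the deepest. Levels are given as CPM, the counts of a gene per 1000000 counts of its TMM-scaled library. A gene was called higher or lower by edgeR's quasi-likelihood test, fitted on all genes with enough counts, where the Benjamini-Hochberg adjusted p was under 0.05. KRT8, KRT18, KRT19 and VIM, which mark this line, were expressed (KRT8, KRT18 and VIM were lower with SCH772984, VIM not with library size alone), whereas EPCAM had 0 counts and CDH1, of the same marker list, at most 5 counts in any library. PTPRC, PRSS1, CPA1 and INS were at 0 CPM in each group and the fibroblast marker COL1A1 was at 0.246 CPM in DMSO and 2.67 CPM with SCH772984. The 10 ERK output genes tested, among them SPRY4 and DUSP6, were all lower with SCH772984, with a median log2 fold change of -4.69, and edgeR called 0 of them with compound 1 (1 higher and 1 lower at an unadjusted p under 0.05). The library of compound 1 replicate 1 stood apart from replicates 2 and 3 of its group, where a chi-square of the counts, divided by its degrees of freedom, was 10.1 and 7.61 against them and 2.66 between them, and results that rest on it are given with and without it. In bulk RNA of this kind, less RNA per cell and fewer cells of a kind cannot be told apart.

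Promoters of respiratory chain genes are known for sites of NRF1 and of ETS-family factors such as GABPA, and the stretches that hold such letters are shown for members that were lower with SCH772984 in every setting tried. RefSeq promoters (GRCh38.p14, 250 bases before to 50 after the start) were matched for 80 of the 100 members. On either strand the NRF1 letters GCATGCGC were in 18.8% of them, against 3.05% of all 35116 promoters of that length, and the ETS letters CCGGAAG, which read CTTCCGG on the other strand, in 26.3% against 10.3%. The YY1 letters AAGATGGCG were in 10.0% against 1.75%, the CREB letters TGACGTCA in 6.25% against 1.85% and the ERRA letters TCAAGGTCA in 1.25% against 0.353%, and in no member did matches of different motifs overlap. The 20 members lower in every setting gave 14 matched promoters, 7 of them with NRF1 or ETS letters, and 6 of these are printed 5′ to 3′ on the gene's strand, with these letters in capitals. Positions count back from the RefSeq start.
SDHB (chr1:17054144-17054242, minus strand, NRF1 letters from -200 and ETS letters from -128): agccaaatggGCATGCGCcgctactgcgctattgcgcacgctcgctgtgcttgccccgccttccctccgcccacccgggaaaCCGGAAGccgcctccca
NDUFS1 (chr2:206159585-206159611, minus strand, ETS letters from -157): gctggggccaCTTCCGGcggaactgcg
NDUFS3 (chr11:47578968-47578997, plus strand, ETS letters from -102 and -83): tccgCTTCCGGctccacgtccgcCCGGAAG
NDUFAF4 (chr6:96898022-96898048, minus strand, ETS letters from -147): ccacctcccgCCGGAAGcggccctcgt
UQCRH (chr1:46303642-46303668, plus strand, ETS letters from -46): gtgtgccgcaCTTCCGGccagatcgcc
COX8A (chr11:63974592-63974618, plus strand, ETS letters from -18): agctccagaaCTTCCGGccagcgcagc
Of all matched members 7 held both kinds of letters. Among the genes printed these are SDHB and NDUFAF4, whose NRF1 letters lie after the start and outside the printed stretch, and SDHD, the one gene of the set not printed, held both as well, and a stretch with all its letters would take in more than 30 exonic bases. NDUFS3 carries the ETS letters on both strands. The stretches of NDUFS1 and NDUFS3 lie in annotated exons of the neighbouring genes EEF1B2 and KBTBD4, and those of SDHB, UQCRH and COX8A overlap exons annotated for the gene itself in part or whole. A match of letters is a description and not a bound site.

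Most of the members were abundant in DMSO. Of the 89 with enough counts over the 9 libraries, 35 were in the upper 10% of all 13929 such genes by CPM per kb of exon, and 81 were in the upper 50%. The level per kb was highest for ATP5F1B, the catalytic beta subunit of the ATP synthase, at 467 CPM per kb, followed by NDUFS5, an accessory subunit of the complex I membrane arm, at 316, and CYC1, the cytochrome c1 of complex III, at 202. Among members tested against DMSO it was lowest for NDUFA13 at 1.07 CPM per kb, ATP5S at 1.38 and the assembly factor gene NDUFAF6 at 1.47. Over the 89 genes the median was 60.1 CPM per kb for complex IV and 51.9 for complex III, against 33.2 for complex II, 31.4 for complex V, 21.7 for complex I and 9.78 for its assembly factors. The highest gene exceeded the lowest by 957 times in complex I and by 5.73 times in complex II. The lowest in complex I was NDUFA7 at 0.330 CPM per kb, which had too few counts to be tested against DMSO, so this range rests on an uncertain gene.

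Some low values belong to genes whose exons are annotated in another gene as well. NDUFV2, a core iron-sulfur subunit of complex I, had 0.862 CPM ± 0.139 (SD, n = 3) in DMSO, and 84.7% of its coding bases also lie in the same-strand gene AP005263.1. Its pseudogene NDUFV2P1 held 163 counts over the 9 libraries where NDUFV2 held 65. The other members with coding bases annotated in a same-strand gene were UQCR11 and COX6B2 (100% of coding bases each), NDUFB8 (85.2%), NDUFA7 (78.3%), NDUFC2 (76.9%), NDUFA9 (67.9%), ATP5PO (62.6%), ATP5MG (56.5%), NDUFA13 (55.2%), COX8A (55.1%), COX6A1 (53.5%), SDHD (47.7%), ATP5MF (44.6%), NDUFA11 (36.9%) and both readthrough genes, so their levels are uncertain. On the opposite strand 40 members share exonic bases with another gene. The strand setting of the counting is not given in the sources used here, so their levels may be uncertain too. In all 47 members share no exonic base with another gene.

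**Figure D1:**
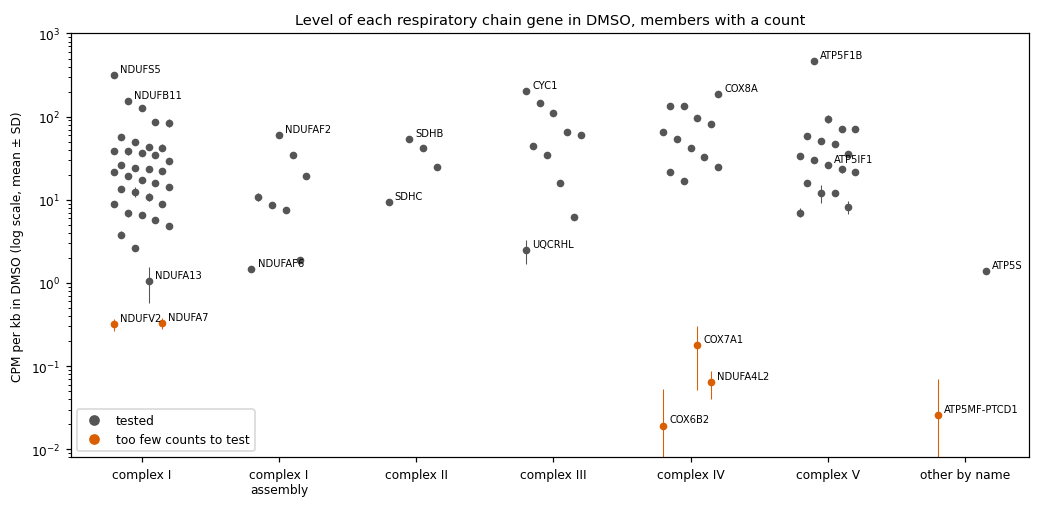
Mean level in DMSO of each member with a count there, in CPM per kb of exon on a log axis, by complex, with the SD over 3 libraries as bars; orange points had too few counts to be tested against DMSO. ATP5F1B stands highest at 467 CPM per kb, and COX6B2 and the readthrough gene ATP5MF-PTCD1 lie at the bottom, below NDUFA4L2 and COX7A1.

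Complex IV has subunits with a broadly expressed and a tissue-restricted gene, and in each such pair the broad gene carried the counts. COX4I1 was at 389 CPM ± 15.2 (SD, n = 3) in DMSO while its partner COX4I2 had no count in any DMSO library. The other broad genes were at 56.9 CPM for COX6A1, 126 for COX6B1, 127 for COX7A2, 74.7 for COX7B, 95.1 for COX8A and 116 for NDUFA4. The restricted genes COX6A2 and COX7B2 had 0 counts in all 9 libraries, and COX6B2, COX7A1, COX8C and NDUFA4L2 reached at most 1.01 CPM in any library. None of the 7 restricted genes had enough counts to be tested. COX4I2 had 8, 2 and 5 counts in the compound 1 libraries, 0 counts in each DMSO library and 0, 1 and 0 counts with SCH772984.

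With SCH772984, 88 members could be tested against DMSO, and 36 were lower, 19 were higher and 33 were not called. Over all 13834 genes of that test 35.5% were lower and 37.2% were higher, 72.8% in all, so most of the tested transcriptome was called and a called member is not unusual. The CPM values of the groups did not overlap for 5023 of these genes lower and 5262 higher, and for 35 and 18 of the 88 members. A gap between the groups is therefore not unusual either. The median log2 fold change was -0.11 over the members and 0.03 over all genes. The split of the family depends on the scaling: with library size alone in place of TMM, which moves the median of all genes to 0.20, it was 21 lower and 35 higher, against 28.3% and 45.1% of all genes, and with the dependence on gene length taken out of each library, which moves that median to -0.15, it was 55 lower and 5 higher, against 43.4% of all genes lower and 4153 of the 13834 genes higher. Under all 15 alternative settings 20 members stayed lower and 4 stayed higher. Of the members named below, NDUFS7, NDUFAF1, UQCRB, COX6C, NDUFA4, COX6A1, ATP5ME and ATP5S lost their higher call with the length trend removed, and NDUFAF5, NDUFAF6, SDHA, COX6B1, COX7A2, ATP5F1E and ATP5MC3 lost their lower call with library size alone. The 12 members without enough counts were the 7 restricted complex IV genes, NDUFV2, NDUFA7, ATP5MGL and both readthrough genes.

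**Figure D2:**
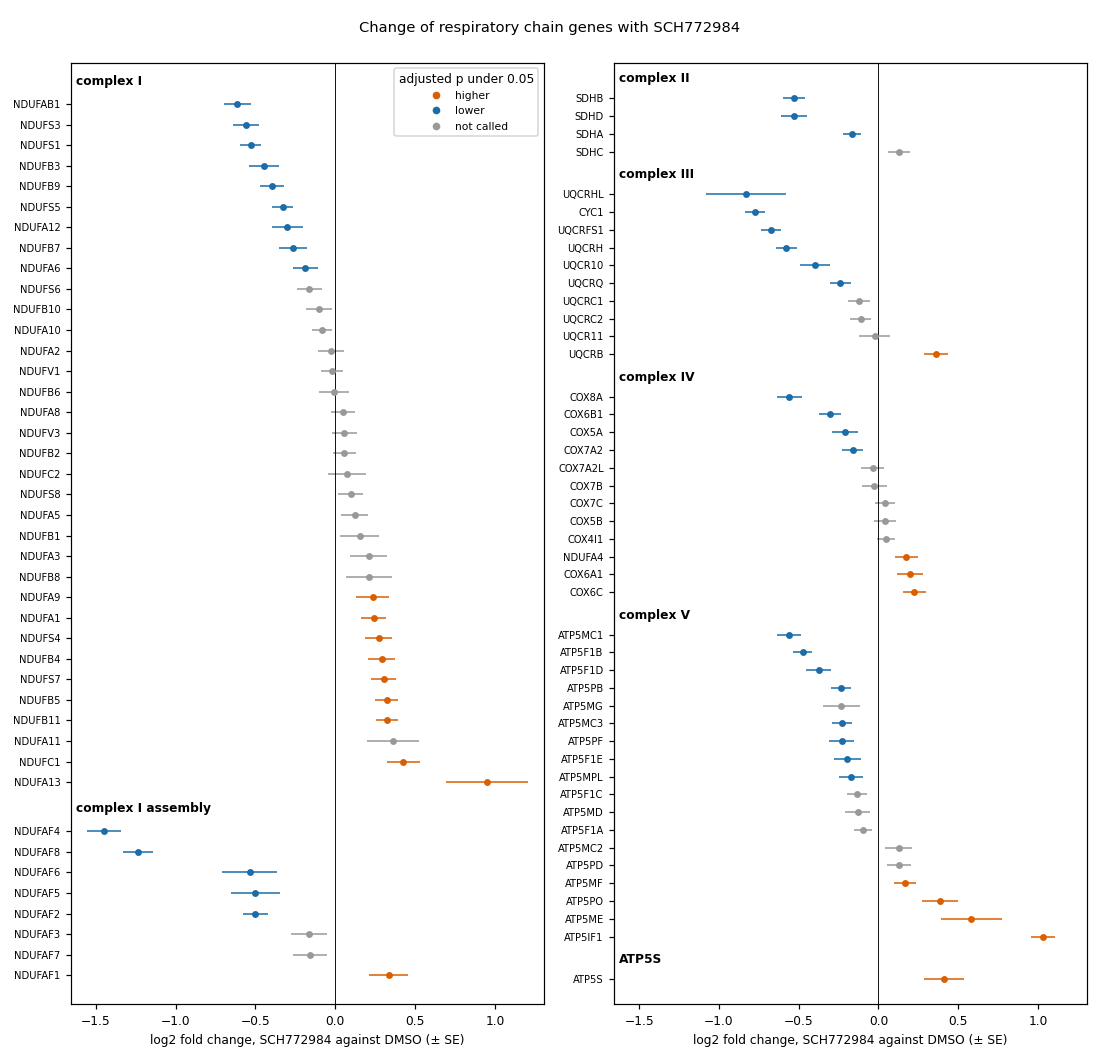
Log2 fold change with SCH772984 against DMSO for 87 of the 88 tested members, with its standard error, by complex; blue marks members called lower, orange higher and grey not called, after TMM scaling. The assembly factors NDUFAF4 (-1.45) and NDUFAF8 (-1.24) lie at the low end and ATP5IF1 (1.03) at the high end.

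Complex I subunits were called in both directions. Of 35 tested, 9 were higher and 10 lower, and their median log2 fold change was 0.06. Among the catalytic core, NDUFS1, the large iron-sulfur subunit of the NADH-oxidizing arm, had 164, 158 and 170.3 CPM in DMSO and 115, 115 and 113 CPM with SCH772984. The groups did not overlap, and the log2 fold change was -0.53 ± 0.07 (SE, adjusted p = 9.9e-10). NDUFS3, a core subunit of the quinone-binding arm, had 66.03, 64.6 and 59.3 CPM in DMSO and 41.4, 43.9 and 44.04 CPM with SCH772984, again without overlap, and its log2 fold change was -0.56 ± 0.08 (adjusted p = 4.9e-08). NDUFS7, an iron-sulfur subunit next to the quinone site, moved the other way, from 46.8, 51.8 and 49.1 CPM to 60.3, 59.9 and 62.5 CPM, with a log2 fold change of 0.30 ± 0.08 (adjusted p = 0.00083). Of the exonic bases of NDUFS7, 49.1% lie opposite AC005329.1 and AC005329.3, and the strand setting of the counting is not given, so its level is uncertain. NDUFV1, the flavin subunit that accepts electrons from NADH, had a log2 fold change of -0.02 ± 0.07 and NDUFS8, an iron-sulfur subunit, one of 0.10 ± 0.08, and neither was called.

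Accessory subunits of complex I were called in both directions as well. NDUFAB1, the mitochondrial acyl carrier protein, fell from 56.5, 58.6 and 58.7 CPM to 33.6, 40.3 and 39.9 CPM, a log2 fold change of -0.61 ± 0.09 (adjusted p = 2.1e-08). NDUFC1, a membrane arm subunit, rose from 27.2, 25.2 and 20.4 CPM to 31.8, 31.7 and 34.6 CPM, a log2 fold change of 0.43 ± 0.11 (adjusted p = 0.00040). In both genes the groups did not overlap. NDUFA13 rose by 0.95 ± 0.26 on the log2 scale (adjusted p = 0.0010) from 1.64, 2.76 and 4.27 CPM to 5.404, 5.32 and 5.97 CPM, and is a low gene with shared coding bases, as above.

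The assembly factors help to build complex I and are not part of the finished enzyme. Of the 8 genes, 5 were lower and 1 was higher, with a median log2 fold change of -0.50. NDUFAF4 had 48.3, 48.4 and 49.9 CPM in DMSO and 18.9, 20.8 and 14.6 CPM with SCH772984, a log2 fold change of -1.45 ± 0.10 (adjusted p = 1.6e-16). NDUFAF8 had 47.9, 46.7 and 47.8 CPM in DMSO and 20.04, 18.9 and 21.5 CPM with SCH772984, a log2 fold change of -1.24 ± 0.10 (adjusted p = 1.0e-15). Each SCH772984 library was far below each DMSO library for both genes, and they were the 2 members called with at least a 2-fold fall, against 10.6% of all genes. The others are named to complete the group, after their values were seen: NDUFAF2, NDUFAF5 and NDUFAF6 had log2 fold changes of -0.50, -0.50 and -0.54 and were called lower, and NDUFAF3 and NDUFAF7 were not called, at -0.16 ± 0.11 and -0.16 ± 0.11. NDUFAF1 was the one that rose, by 0.33 ± 0.12 (adjusted p = 0.014), and it was not called with no filter on low counts or without DMSO replicate 1 (0.30) or DMSO replicate 3 (0.31).

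In complex II, which links the citric acid cycle to the chain, 3 of the 4 genes were lower. SDHB, the iron-sulfur subunit, had 128, 137 and 130.3 CPM in DMSO and 92.4, 91.5 and 90.9 CPM with SCH772984. SDHD, a membrane anchor, had 71.9, 71.2 and 67.2 CPM in DMSO and 49.97, 51.1 and 45.4 CPM with SCH772984. The groups did not overlap for either gene, and the log2 fold changes were -0.53 ± 0.07 (adjusted p = 2.5e-09) and -0.53 ± 0.08 (adjusted p = 9.8e-08). SDHA, the flavin-carrying catalytic subunit, was lower at -0.17 ± 0.06 (adjusted p = 0.011), which turned to 0.0087 with library size alone and was also not called when 10 counts were required in each library or only protein-coding genes were fitted. SDHC, the other anchor, was at 0.13 ± 0.07 and was not called. Pseudogenes of SDHA held 13.0% as many counts as SDHA itself, so reads between them could be split.

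In complex III 6 of 10 genes were lower and 1 was higher, with a median log2 fold change of -0.32. Both nuclear-encoded subunits that carry electrons were among those lower. CYC1 had 399.6, 391 and 404 CPM in DMSO and 225, 218 and 259 CPM with SCH772984, a log2 fold change of -0.77 ± 0.06 (adjusted p = 9.7e-15). UQCRFS1, the Rieske iron-sulfur protein, had 213, 217 and 196 CPM in DMSO and 131, 126 and 137 CPM with SCH772984, a log2 fold change of -0.67 ± 0.06 (adjusted p = 1.2e-12). All SCH772984 values of both genes were below all DMSO values. UQCRHL, an intronless copy of the hinge protein gene UQCRH, had 4.204, 7.398 and 4.597 CPM in DMSO and 3.74, 2.87 and 2.55 CPM with SCH772984 and a log2 fold change of -0.83 ± 0.25 (adjusted p = 0.0031), where reads of so similar a pair may not be separable. Without DMSO replicate 2 it was at -0.56 and not called. UQCRB, which helps to form the quinone pocket, was the one gene of the complex that rose, by 0.36 ± 0.08 (adjusted p = 4.5e-05). Named after their values were seen, UQCRH was lower at -0.58 ± 0.06 (adjusted p = 8.0e-11), and the core proteins UQCRC1 and UQCRC2 were not called, at -0.12 ± 0.07 and -0.11 ± 0.06.

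In complex IV 4 of the 12 tested genes were lower and 3 higher, with a median log2 fold change of 0.01. COX8A, a small membrane subunit, had 98.1, 96.7 and 90.3 CPM in DMSO and 59.9, 59.5 and 74.4 CPM with SCH772984, without overlap, a log2 fold change of -0.56 ± 0.08 (adjusted p = 4.2e-08). COX6B1, on the side that meets cytochrome c, was lower at -0.30 ± 0.07 (adjusted p = 0.00013). COX7A2 was at -0.16 ± 0.07 (adjusted p = 0.030), a value that turned to 0.013 with library size alone. It kept its call in 10 of the 15 alternatives, and lost it also in the fit of all 9 libraries, when only protein-coding genes were fitted, when 10 counts were required in each library and without DMSO replicate 3 (-0.13). Higher were COX6C at 0.22 ± 0.07 (adjusted p = 0.0061), NDUFA4 at 0.17 ± 0.07 (adjusted p = 0.023) and COX6A1 at 0.20 ± 0.08 (adjusted p = 0.024), the last turning to -0.028 with the length trend removed. NDUFA4 kept its call in 10 of the 15 alternatives and lost it without DMSO replicate 1 (0.18), DMSO replicate 2 (0.11) or SCH772984 replicate 3 (0.11). It also lost the call with no filter on low counts and with the length trend removed. COX6A1, whose coding bases are partly shared as given above, kept its call in 8 and lost it without DMSO replicate 2 (0.15), DMSO replicate 3 (0.16) or SCH772984 replicate 3 (0.14). It also lost the call in DESeq2, in the fit of all 9 libraries, with no filter on low counts and with the length trend removed. COX4I1 had 394, 371 and 400.3 CPM in DMSO and 397, 407 and 405 CPM with SCH772984, values that overlapped, and was not called (0.05 ± 0.06), nor were COX7B (-0.03 ± 0.08) and COX7A2L, a relative of COX7A2 that acts in supercomplexes (-0.04 ± 0.07).

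In complex V 8 of 18 genes were lower and 4 higher, with a median log2 fold change of -0.15. ATP5F1B had 1097, 1099 and 1055 CPM in DMSO and 792, 763 and 792 CPM with SCH772984, without overlap, a log2 fold change of -0.48 ± 0.06 (adjusted p = 6.7e-10). Its partner in the catalytic head, the alpha subunit gene ATP5F1A, had 779, 806 and 760.2 CPM in DMSO and 745, 739.7 and 716 CPM with SCH772984 and was not called (-0.10 ± 0.06, adjusted p = 0.12). In the central stalk, ATP5F1D, the delta subunit, was at -0.38 ± 0.08 (adjusted p = 4.0e-05) and ATP5F1E, epsilon, at -0.19 ± 0.08 (adjusted p = 0.035), both lower, whereas ATP5F1C, gamma, at -0.13 ± 0.06 was not called. ATP5F1D was called in all 15 alternatives and ATP5F1E in 7, with the call of ATP5F1E lost in DESeq2, in the fit of all 9 libraries and without DMSO replicate 1 (-0.17), SCH772984 replicate 1 (-0.11) or SCH772984 replicate 2 (-0.21). It was also lost with library size alone, when 10 counts were required in each library and when only protein-coding genes were fitted. The proton-carrying c-ring is built from the products of 3 genes that encode the same mature protein. ATP5MC1 fell from 97.9, 88.01 and 94.7 CPM to 66.7, 58.7 and 65.7 CPM (-0.56 ± 0.08, adjusted p = 8.6e-09), ATP5MC3 was lower at -0.23 ± 0.06 (adjusted p = 0.0011), and ATP5MC2 was at 0.13 ± 0.09 and not called.

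ATP5IF1 encodes inhibitory factor 1, a small protein that binds the catalytic head of the ATP synthase and blocks ATP hydrolysis when the proton gradient is lost. It had 61.2, 55.2 and 57.8 CPM in DMSO, 76.3, 67.2 and 62.6 CPM with compound 1 and 114, 120.0 and 124 CPM with SCH772984. Every SCH772984 library was above every other library. The log2 fold change against DMSO was 1.03 ± 0.07 (adjusted p = 6.7e-17), it stayed called in all 15 alternatives, and ATP5IF1 was the 1 member called with at least a 2-fold rise, against 18.2% of all genes. ATP5ME, subunit e of the membrane part, had 11.8, 8.28 and 13.7 CPM in DMSO and 14.2, 13.9 and 22.2 CPM with SCH772984 (0.58 ± 0.19, adjusted p = 0.010), and 61.6% of its exonic bases lie opposite MYL5, with the strand setting of the counting not given in the sources used here. Without SCH772984 replicate 3 the value was 0.31 and not called. ATP5S, outside the complexes by name, was higher at 0.41 ± 0.12 (adjusted p = 0.0031).

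**Figure D3:**
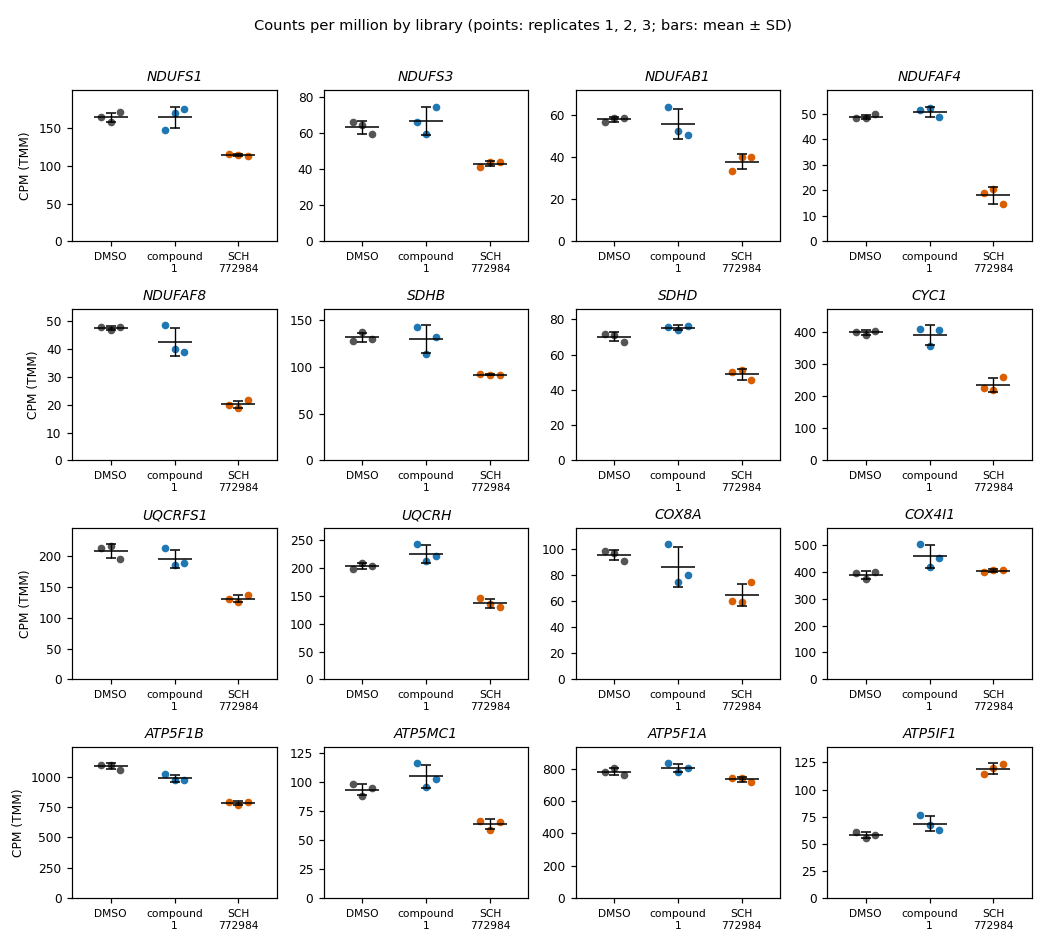
CPM of 16 members in each library, on axes that start at 0, for DMSO, compound 1 and SCH772984; points are replicates 1 to 3 from left to right and bars the mean and SD. The SCH772984 points lie below the DMSO points without overlap for NDUFAF4, NDUFAF8, SDHB, SDHD, CYC1 and UQCRFS1 and above them for ATP5IF1, and they overlap for COX4I1.

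Set against the promoter letters, 11 of the 27 matched members that were lower with SCH772984 held the ETS letters and 6 the NRF1 letters. Of the 14 that were higher 4 held the ETS and 4 the NRF1 letters, and of the 31 not called 6 and 5. The promoter of ATP5IF1 held none of the 5 motifs.

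Genes that regulate or serve the chain were read from lists of its known partners. Of 14 tested regulators of mitochondrial gene expression 12 were lower with SCH772984 and 0 higher, against 35.5% and 37.2% of all genes. Their median log2 fold change was -0.96, and 11 were lower and 0 higher with library size alone. ESRRA, an orphan nuclear receptor that activates respiratory genes, was at -2.03 ± 0.09 (from 80.8 to 19.7 CPM) and TWNK, the mitochondrial DNA helicase, at -1.69 ± 0.13. Named after their values were seen, the factors whose letters are printed in capitals above were at -1.19 ± 0.12 for NRF1, -0.26 ± 0.08 for GABPA and -1.14 ± 0.14 for its partner GABPB1, and TFAM, which packages mitochondrial DNA, was at -1.41 ± 0.07, all 4 lower. With library size alone GABPA was at -0.09 and not called. Of the other factors whose letters were searched, YY1 was lower at -0.65 ± 0.06 and CREB1 was not called (-0.08 ± 0.09, adjusted p = 0.47; lower at -0.29 with the length trend removed). Cytochrome c itself, CYCS, was at -1.42 ± 0.07 and HCCS, which attaches its heme, at -0.88 ± 0.07.

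Assembly genes outside the name rule were lower in 5 and higher in 1 of 10 for complex I, 2 and 0 of 4 for complex II, 4 and 1 of 6 for complex III, 11 and 5 of 24 for complex IV and 2 and 1 of 4 for complex V, after TMM scaling. With library size alone these were 3 and 2, 2 and 1, 3 and 2, 8 and 6, and 1 and 2. Over all genes 35.5% were lower and 37.2% higher after TMM scaling, and 28.3% and 45.1% with library size alone. The 4 genes for complex V had a median log2 fold change of -0.0035 after TMM scaling and 0.17 with library size alone, so they give no direction. SDHAF1 (-2.02 ± 0.21) and SDHAF3 (-1.42 ± 0.11), which help the iron-sulfur subunit of complex II, were lower, as were BCS1L (-0.95 ± 0.09), which inserts the Rieske protein, and FOXRED1 (-0.84 ± 0.11) for complex I. Also lower were UQCC3 (-0.78 ± 0.16) for complex III and DMAC1 (-0.81 ± 0.11) for complex I. PET100 (1.31 ± 0.24) for complex IV was higher at 2.68 CPM in DMSO, and for complex V FMC1 was higher (1.10 ± 0.35) and TMEM70 lower (-0.79 ± 0.09). One of the 5 higher genes for complex IV, COX20, had 3, 9 and 3 counts in DMSO and 15, 22 and 22 with SCH772984, so it entered the test only through the group where it is high. In coenzyme Q synthesis 6 of 13 were lower and 3 higher, which became 3 and 5 with library size alone, with PDSS1 at -1.68 and COQ10A at 1.45. In the citric acid cycle 7 of 14 were lower and 3 higher, or 6 and 5 with library size alone, with IDH3A at -1.25 and citrate synthase, CS, at -0.51. Of 77 mitochondrial ribosomal protein genes 64 were lower and 3 higher, with a median of -0.53, and with library size alone 54 and 4, with a median of -0.35.

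Among the subunits encoded by mitochondrial DNA, 10 of 13 were higher with SCH772984 and 1, MT-ATP8, was lower, against 37.2% and 35.5% of all genes. The median log2 fold change was 0.54 (12 and 1 with library size alone, 9 and 2 with the length trend removed). The largest called changes were those of MT-ND6 (0.89 ± 0.20) and MT-ND4 (0.83 ± 0.11). Summed values are of all 13 subunits. Together the mitochondrially encoded subunits took 28733, 32023 and 33952 CPM in DMSO and 41775, 51653 and 50994 CPM with SCH772984, a ratio of means of 1.52. All nuclear-encoded members together took 9948, 9841 and 9777 CPM in DMSO and 8776, 8663 and 9093 CPM with SCH772984, a ratio of 0.897. In both cases the groups did not overlap, and the two-sided exact permutation p was 0.1, the smallest that 3 against 3 libraries allow. With library size alone the ratios were 1.71 and 1.01, so the mitochondrially encoded sum was higher under both scalings while the nuclear-encoded sum was lower under TMM only. By complex the TMM ratio of nuclear-encoded sums was 0.663 for the complex I assembly factors, 0.763 for complex III, 0.875 for complexes II and V, 0.976 for complex I and 0.990 for complex IV. Within complex III the single mitochondrially encoded subunit, MT-CYB, was at 1392 CPM ± 109.7 in DMSO and 2246 CPM ± 242 with SCH772984, while the nuclear-encoded sum was at 1504 CPM ± 8.97 and 1147 CPM ± 53.6.

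**Figure D4:**
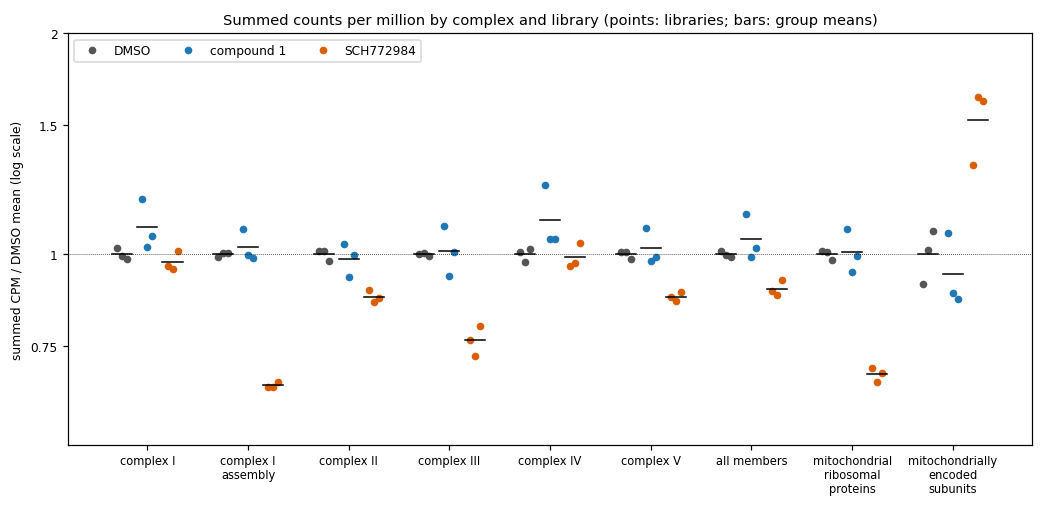
Summed CPM of the nuclear-encoded genes of each complex, of all members, of mitochondrial ribosomal proteins and of mitochondrially encoded subunits, in each library relative to the DMSO mean, on a log axis; bars are group means. With SCH772984 and TMM scaling the complex I assembly factors (0.663) and complex III (0.763) lie lowest among the members, and the mitochondrially encoded sum lies at 1.52.

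With compound 1 edgeR called 0 of the 88 members, where 0.864% of all 12849 genes tested were called, 0.490% higher and 0.374% lower. At an unadjusted p under 0.05, 26 were higher and 1 lower, against 7.35% and 7.69% of all genes. DESeq2 called 3 of the same 88, all higher, where it called 0.911% of all genes higher and 0.949% lower. Without compound 1 replicate 1 these unadjusted counts were 20 and 9, against 10.0% and 12.6% of all genes. Of the members 67 were above 0, against 50.5% of all genes (56 against 51.1% without compound 1 replicate 1), and their median log2 fold change was 0.11. Relative to the DMSO mean, the median over the members was 0.25 in compound 1 replicate 1, 0.06 in replicate 2 and 0.06 in replicate 3, while the median over all genes was within 0.02 of 0 in each. In replicate 1 it was 0.31 for complex IV, 0.27 for complex I and 0.26 for complex V, each above both other libraries of the group. Without compound 1 replicate 1 the median over the members was 0.07, and 4 members were higher and 5 lower at an adjusted p under 0.05, against 3.46% and 6.10% of all genes, so the members were called about as often as other genes.

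**Figure D5:**
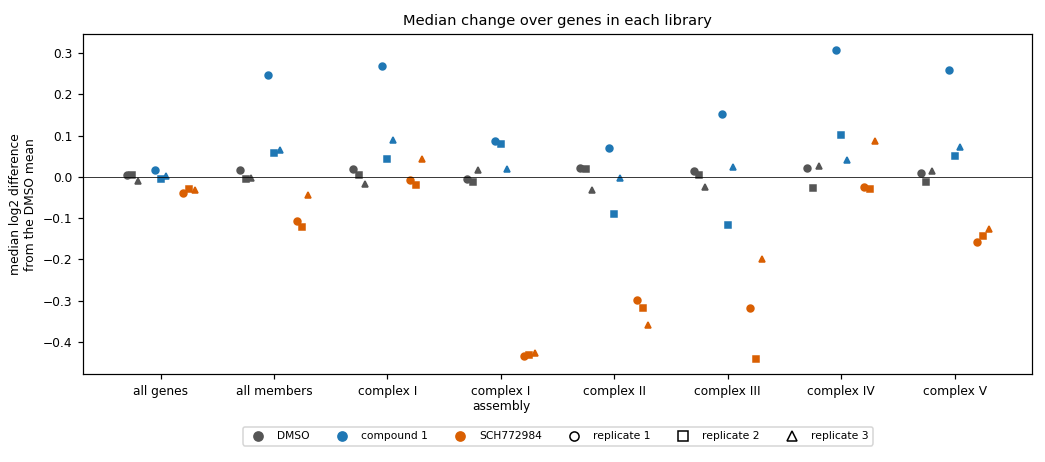
Median log2 difference from the DMSO mean over all genes, over the members and over each complex, in each of the 9 libraries; colour gives the group and shape the replicate. Compound 1 replicate 1 lies at 0.25 over the members and replicates 2 and 3 at 0.06, and all 3 SCH772984 libraries lie below 0 for the complex I assembly factors and complexes II, III and V.

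The members called without compound 1 replicate 1, named after their values were seen, had small changes. ATP5MF and ATP5MD, subunits of the membrane part of the ATP synthase, were higher by 0.25 ± 0.06 and 0.31 ± 0.08, NDUFB5, an accessory subunit of complex I, by 0.29 ± 0.07 and COX4I1 by 0.17 ± 0.05. ATP5MC2 was lower at -0.36, COX8A at -0.30, ATP5F1D at -0.29, NDUFS8 at -0.25 and ATP5F1B at -0.15. With all 3 libraries ATP5MF had 116, 115 and 119.9 CPM in DMSO and 176, 137 and 141 CPM with compound 1, a log2 fold change of 0.37 ± 0.09 with adjusted p = 0.066. ATP5MD had 95.96, 76.1 and 89.5 CPM against 124, 111 and 105 CPM, 0.38 ± 0.09 with adjusted p = 0.071. Neither pair of groups overlapped, and these 2 genes and NDUFB5 (0.31 ± 0.08, adjusted p = 0.077) were the 3 that DESeq2 called. Over all 12849 genes the groups did not overlap for 1326 higher and 1356 lower with compound 1.

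For the 5 members with the largest falls with SCH772984, which was compared with the same DMSO libraries, the log2 fold change with compound 1 was 0.06 ± 0.09 for NDUFAF4, -0.16 ± 0.10 for NDUFAF8, 0.57 ± 0.24 for UQCRHL, -0.03 ± 0.07 for CYC1 and -0.09 ± 0.07 for UQCRFS1, none of them called. It was -0.02 ± 0.08 for SDHB and 0.11 ± 0.08 for SDHD. ATP5IF1 was at 0.24 ± 0.09 (adjusted p = 0.21).

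The inhibitors were also compared with each other at their equal dose and time, without the DMSO libraries that both earlier comparisons share. Of 89 tested members 38 were lower with SCH772984 than with compound 1 and 5 were higher, against 32.6% and 33.7% of all genes, 66.3% in all, with a median log2 difference of -0.18 where that of all genes was 0.03. With library size alone the split was 24 lower and 14 higher, against 26.9% and 39.9% of all genes, and without compound 1 replicate 1 it was 34 and 11, against 31.9% and 33.5%. The calls were 11 lower and 3 higher of 36 in complex I, 5 and 0 of 8 among its assembly factors, 2 and 0 of 4 in complex II, 6 and 0 of 10 in complex III, 4 and 0 of 12 in complex IV and 10 and 2 of 18 in complex V. At least 2-fold differences were called for 0 members higher and 3 lower, against 16.5% and 10.1% of all genes. NDUFAF4 differed by -1.50 ± 0.13 (adjusted p = 1.5e-09), UQCRHL by -1.39 ± 0.24 (adjusted p = 3.0e-05) and NDUFAF8 by -1.07 ± 0.12 (adjusted p = 8.1e-08). ATP5IF1 differed by 0.80 ± 0.09 (adjusted p = 2.7e-07), NDUFA13 by 0.58 ± 0.22 (adjusted p = 0.023) and NDUFC1 by 0.44 ± 0.12 (adjusted p = 0.0021). The call of NDUFA13 was lost in 5 of the 15 alternatives, which were DESeq2, no filter on low counts, the length trend removed, and leaving out compound 1 replicate 3 (0.52) or SCH772984 replicate 3 (0.53). In complexes II and III the difference was -0.74 ± 0.09 for CYC1, -0.58 ± 0.09 for UQCRFS1, -0.50 ± 0.09 for SDHB and -0.62 ± 0.09 for SDHD, all lower, while SDHA (-0.12 ± 0.08) and SDHC (0.17 ± 0.08) were not called. The iron-sulfur subunit gene NDUFS7 of complex I, at 0.09 ± 0.11, was not called either. Under all 15 alternatives 24 of the 38 and 2 of the 5 kept their call.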

How the data were processed

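RNA-seq was run on 9 libraries of MIA PaCa-2 cells. The authors deposited raw read counts per gene; the submitters' processing notes name HISAT2 2.0.5, featureCounts 1.5.0-p3 and the build hg38, and the strand setting is not given in the sources used here. Counts were TMM-scaled and tested in edgeR 4.0.16 (R 4.3.3; filterByExpr with a minimum count of 10, robust quasi-likelihood test), 1 fit per comparison, with Benjamini-Hochberg adjustment over all genes. The scripts were tested on simulated data. DESeq2 1.42.0, other scalings, filters and left-out libraries served as alternatives. P-values measure only the spread between libraries, which may be technical. Members, lists and settings were chosen with earlier results of these data known. Named were fixed roles (complex II, catalytic cores, c-ring, isoform pairs), the 2 largest called changes per complex and direction and per partner list, the 3 largest per direction between inhibitors, and the 3 highest and lowest levels per kb. Levels per kb use the deposited gene lengths. Sums over genes were compared by exact permutation tests. Exon sharing was read from the annotation given here. The values of 1 member are not reported here.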

Additional observations from a re-analysis of the deposited data

How the results depend on the processing

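With library size alone, SCH772984 gave 35 members higher and 21 lower, with median log2 fold changes of 0.067 over all members, 0.23 for complex I, -0.33 for its assembly factors, -0.17 for complex II, -0.14 for III, 0.18 for IV and 0.022 for V, and summed ratios of 1.01, 1.10, 0.744, 0.983, 0.856, 1.11 and 0.982 in the same order. It turned SDHA to 0.0087, NDUFV1 to 0.15 and COX7A2 to 0.013, gave 1 member higher with compound 1 (assembly factor median 0.12), 14 higher and 24 lower between inhibitors (median -0.042), and DMSO levels of 20.7, 31.7, 49.4, 57.3 and 29.98 CPM per kb for complexes I to V. With the length trend removed, SCH772984 gave 5 higher and 55 lower, with medians of -0.28, -0.11, -0.69, -0.51, -0.55, -0.17 and -0.33, turned COX6A1 to -0.028 and SDHC to -0.16, and gave 3 higher with compound 1 and 2 between inhibitors (median -0.33). Requiring 10 counts in every library gave SCH772984 medians of -0.028 over all members, 0.14 for complex I, -0.42 for its assembly factors, -0.27 for II, 0.087 for IV and -0.073 for V, and 8 higher between inhibitors. Fitting protein-coding genes only gave -0.059 over all members, 0.10 for complex I, -0.45 for its assembly factors, -0.30 for II and -0.10 for V. With no filter, where the median of all genes was 0.36, it was 0.019 for complex I, -0.54 for its assembly factors, -0.38 for II and -0.19 for V, and compound 1 gave 4 higher. Requiring a 2-fold change left 1 higher and 2 lower with SCH772984, and 0 and 3 between inhibitors. The cause of these differences was not tested. With compound 1, DESeq2 called 3 higher, the fit of all 9 libraries 2, and an unadjusted p 26 higher and 1 lower. DESeq2 called 3 higher between inhibitors. Among all genes, those higher with compound 1 were 85 of 12849 with library size alone and 139 of 12849 with the length trend removed. They were 189 of 25883 with no filter and 91 of 13929 in the fit of all 9 libraries. Between inhibitors, 3917 of 13863 genes were higher with the length trend removed, 4154 of 12091 with 10 counts required and 4352 of 13863 in DESeq2.

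Leaving out each library in turn moved the SCH772984 median between -0.0053 and 0.041 for complex I, -0.52 and -0.43 for its assembly factors, -0.056 and 0.031 for complex IV, and -0.21 and -0.15 for complex V, with the lowest values of the first 3 without SCH772984 replicate 3. Members called with compound 1 ranged from 0 to 4 higher and 0 to 5 lower, the upper values coming without compound 1 replicate 1, where 453 and 798 of 13084 genes were called. Members higher between inhibitors ranged from 2 (without compound 1 replicate 3 or SCH772984 replicate 3, and 3 without compound 1 replicate 2) to 11 (without compound 1 replicate 1). Among all genes, those higher were 4338 of 14469, 4286 of 13957, 4620 of 14435 and 4844 of 14446 in the same order. The replicate numbers gave no clear pairing of the samples, though correlations over 3 libraries per group cannot exclude one. Deviations of same-numbered libraries correlated at 0.02, 0.01 and 0.04 between SCH772984 and DMSO and at 0.14, -0.03 and 0.01 between compound 1 and DMSO. Between the inhibitors the values were -0.06, 0.13 and -0.09, and not every library correlated best with its own number. With the replicate number as a block, 20 members were higher and 36 lower with SCH772984, 4 higher and 0 lower with compound 1, and 5 higher and 37 lower between inhibitors. Among all genes these were 5145 and 4926 of 13834, 193 and 219 of 12849, and 4585 and 4424 of 13863. Of the values of single named genes under these alternatives, 1771 kept their side of the threshold, 65 lost the call and 49 gained one. Another 5 reversed in direction with a call in at least 1 of the fits compared. Uncalled values that changed sign are counted among the 1771, so these did not all keep their direction. The scaling alternatives for the lists of partner genes were chosen after seeing the data.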
